A study of Mus musculus with 8 samples.

Results

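Ribosome footprints in mouse brain at postnatal day 5 were examined for 10 genes of the motors that move cargo along axonal microtubules. The genes are Kif1a, Kif1b, Kif5a, Kif5b, Kif5c, Klc1, Kif3a, Kif21a, Dync1h1 and Dctn1, and they are 10 of the 21874 coding genes in the deposited table. They were chosen by name, and each was represented by its most covered protein-coding transcript over the 8 libraries. All 10 had reads in every library.

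Much of what an axon needs is made in the cell body, and vesicles, mitochondria, cytoskeletal subunits and RNA granules are carried along microtubules. Kinesins of the 1, 2, 3 and 4 families walk mostly away from the cell body, and cytoplasmic dynein with its cofactor dynactin walks back. Mutations in human KIF1A, KIF5A, DYNC1H1 and DCTN1 cause inherited disorders of long axons or motor neurons, and impaired transport is a known feature of motor neuron disease models.

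The mice were of the Taiwanese model of severe spinal muscular atrophy on a congenic FVB background, and all of them carried the human SMN2 transgene on 1 allele (SMN2tg/0). Phenotypically normal Smn+/-; SMN2tg/0 littermates gave 3 SMN immunoprecipitates and 1 IgG immunoprecipitate, for which RNase I-digested ribosomes were pelleted and then pulled down. Early symptomatic Smn-/-; SMN2tg/0 brains gave 2 RiboLace libraries, in which ribosomes active in translation are captured, and 2 libraries of polysomes separated on sucrose gradients. Replicates are labelled as biological, and no Smn+/- RiboLace or polysome library was analysed here. Any contrast of an immunoprecipitate with polysomes therefore changes genotype and protocol together, and these cannot be told apart.

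Reads on 1 transcript per coding gene numbered 133295 to 237760 in the SMN libraries, 206690 in IgG, 39375 to 47846 in RiboLace and 1661834 to 2295393 in polysomes. Levels are given as counts per 1000000 of these reads (CPM). A count of 3 corresponded to 12.6 to 22.5 CPM in the SMN libraries, 14.5 CPM in IgG, 62.7 to 76.2 CPM in RiboLace and 1.31 to 1.81 CPM in polysomes. All 14 neuronal markers examined had reads in each group, with a summed level of 9983 to 12446 CPM in SMN libraries, 10431 CPM in IgG, 12724 to 13042 CPM in RiboLace and 7779.9 to 8224 CPM in polysomes. In whole brain, fewer neurons and fewer footprints per neuron cannot be told apart.

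The 10 motor genes together took a larger share of coding footprints in the immunoprecipitates than in the other libraries. Their share was 1.03%, 0.978% and 0.966% in SMN replicates 1 to 3 and 0.958% in IgG, against 0.496% and 0.471% in polysomes. RiboLace libraries held 0.556% and 0.538%, against the same polysome values. The SMN and IgG shares lay above every RiboLace and polysome share, and their exact binomial 95% intervals did not overlap with those of RiboLace or polysomes (lowest bound 0.917% in IgG, highest bound 0.627% in RiboLace replicate 1). SMN replicates 2 and 3 had intervals that included the IgG value. These intervals cover counting error only. Dync1h1 made up 41.7%, 49.3% and 35.8% of the members' reads in SMN replicates 1 to 3 and 38.8% in IgG. It made up 22.2% and 23.6% in RiboLace, against 31.0% and 27.2% in polysomes.

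**Figure D1:**
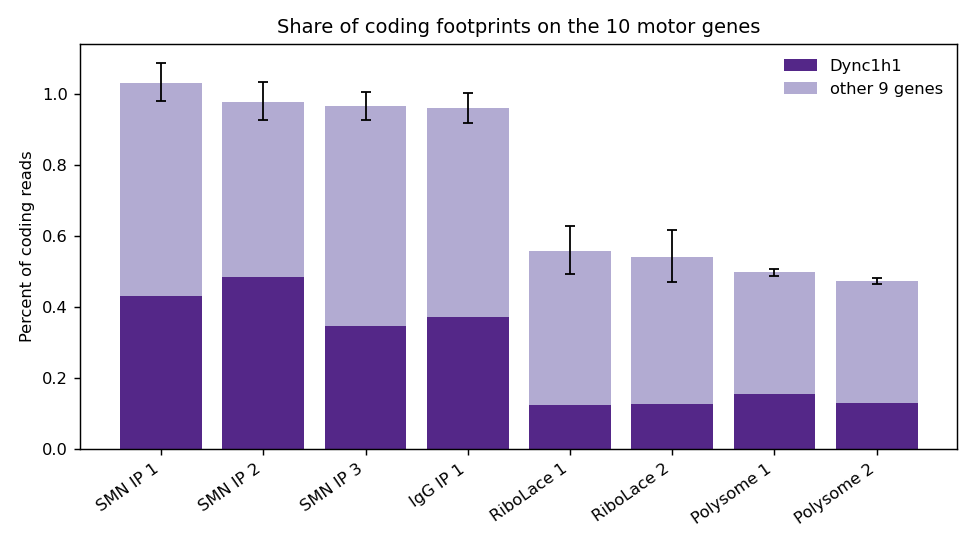
Percent of coding reads on the 10 motor genes in each of the 8 libraries, with Dync1h1 as the lower part of each bar and exact binomial 95% intervals of the total. The 3 SMN bars and the IgG bar reach 0.958% to 1.03%, and the RiboLace and polysome bars reach 0.471% to 0.556%.

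The retrograde motor gave the highest counts. Dync1h1 (ENSMUSG00000018707, chromosome 12) encodes the heavy chain that hydrolyses ATP and steps along the microtubule, with a coding region of 13935 nucleotides. Its level was 4297, 4824 and 3461 CPM in SMN replicates 1 to 3 and 3721 CPM in IgG, against 1536 and 1280.0 CPM in polysomes. Every immunoprecipitate lay above every polysome library, and IgG lay inside the SMN range. In RiboLace it had 1233 and 1269.8 CPM, both just below the polysome values. Dctn1 (ENSMUSG00000031865, chromosome 6) encodes the p150 subunit of dynactin, which binds microtubules and dynein. Its level was 311, 113 and 181 CPM in SMN replicates 1 to 3 and 358 CPM in IgG, against 192 and 199 CPM in polysomes. The SMN libraries fell on both sides of the polysome values, whereas IgG lay above all SMN and polysome libraries. RiboLace gave 272 and 356 CPM for Dctn1, both above polysomes.

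Kinesin-1, built from Kif5 heavy chains and kinesin light chains, moves mitochondria, vesicles and slow cytoskeletal cargo. Kif5a (ENSMUSG00000074657, chromosome 10), the neuronal heavy chain linked to spastic paraplegia and amyotrophic lateral sclerosis in humans, had 889.8, 1260.4 and 1009.4 CPM in SMN replicates 1 to 3 and 871 CPM in IgG, against 682 and 693 CPM in polysomes. In RiboLace it had 502 and 584 CPM, below both polysome libraries. Kif5a was thus above polysomes in all 4 immunoprecipitates and below them in both RiboLace libraries, where it had 24 and 23 reads. The exact Poisson 95% intervals of the RiboLace values, 321 to 746 and 370 to 876 CPM, included both polysome values. Kif5c (ENSMUSG00000026764, chromosome 2), also neuronal, had 1085, 1163 and 1186 CPM in SMN replicates 1 to 3 and 997 CPM in IgG, against 813 and 752 CPM in polysomes. RiboLace gave 1066 and 813 CPM for Kif5c, of which the second fell between the polysome values. Kif5c was the steadiest member among the SMN libraries. Kif5b (ENSMUSG00000006740, chromosome 18), the ubiquitous heavy chain, had 304, 158 and 303 CPM in SMN replicates 1 to 3 and 300.0 CPM in IgG, against 166 and 170.3 CPM in polysomes. SMN replicate 2 lay below both polysome libraries and the other immunoprecipitates well above. RiboLace gave 272 and 152 CPM, which span the polysome values.

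Klc1 (ENSMUSG00000021288, chromosome 12) links the Kif5 heavy chains to cargo as a light chain. Its level was 629, 353 and 467 CPM in SMN replicates 1 to 3 and 503 CPM in IgG, against 395 and 386 CPM in polysomes, and SMN replicate 2 was again below polysomes. Its RiboLace values of 648 and 609.5 CPM were both above polysomes. Among the 3 heavy chains, Kif5c took 47.6%, 45.1% and 47.5% of the summed reads in SMN replicates 1 to 3 and 46.0% in IgG, against 48.9% and 46.6% in polysomes. Kif5a took 39.0%, 48.8% and 40.4% in SMN replicates and 40.2% in IgG, against 41.1% and 42.9% in polysomes. Kif5b took 13.3%, 6.10% and 12.1% in SMN replicates and 13.8% in IgG, against 10.0% and 10.5% in polysomes. In RiboLace the shares were 58.0% and 52.5% for Kif5c, 27.3% and 37.7% for Kif5a and 14.8% and 9.84% for Kif5b. Of the 8 libraries, SMN replicate 2 had the largest Kif5a share and the smallest Kif5b share, and the RiboLace libraries had the largest Kif5c and the smallest Kif5a shares.

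Kinesin-3 motors carry synaptic vesicle precursors and dense core vesicles. Kif1a (ENSMUSG00000014602, chromosome 1), its main neuronal motor, had 1483, 1050.3 and 1552 CPM in SMN replicates 1 to 3 and 1509.5 CPM in IgG, against 464 and 494 CPM in polysomes. All 4 immunoprecipitates were above both polysome libraries. RiboLace gave 773 and 533 CPM, also above both. Kif1b (ENSMUSG00000063077, chromosome 4), whose long form carries synaptic vesicle precursors and whose short form carries mitochondria, had 904, 698 and 1073 CPM in SMN replicates 1 to 3 and 899.9 CPM in IgG, against 519.9 and 549.8 CPM in polysomes. All 4 immunoprecipitates were again above both polysome libraries, while the RiboLace values, 481 and 863 CPM, fell on either side of them. The transcript counted for Kif1b was the long form, with a coding region of 5451 nucleotides. The short form, of 3453 nucleotides, had 37.6%, 35.5% and 31.8% as many reads as the long form in SMN replicates 1 to 3 and 38.2% in IgG, against 35.3% and 29.1% in polysomes. The short form shares its 5′ coding part with the long form, so these reads cannot be assigned to either with certainty.

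Kif3a (ENSMUSG00000018395, chromosome 11), a kinesin-2 subunit that carries vesicles and builds cilia, had 282, 120.0 and 332 CPM in SMN replicates 1 to 3 and 319 CPM in IgG, against 146 and 134 CPM in polysomes. RiboLace gave 209 and 178 CPM, both above polysomes. Kif21a (ENSMUSG00000022629, chromosome 15), a kinesin-4 that curbs microtubule growth, was the lowest member. Its level was 123, 37.5 and 92.5 CPM in SMN replicates 1 to 3 and 106 CPM in IgG, against 47.5 and 53.6 CPM in polysomes. For both genes SMN replicate 2 was below polysomes and the other immunoprecipitates were above. The RiboLace values of Kif21a, 104.5 and 25.4 CPM, rested on 6 reads in all.

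**Figure D2:**
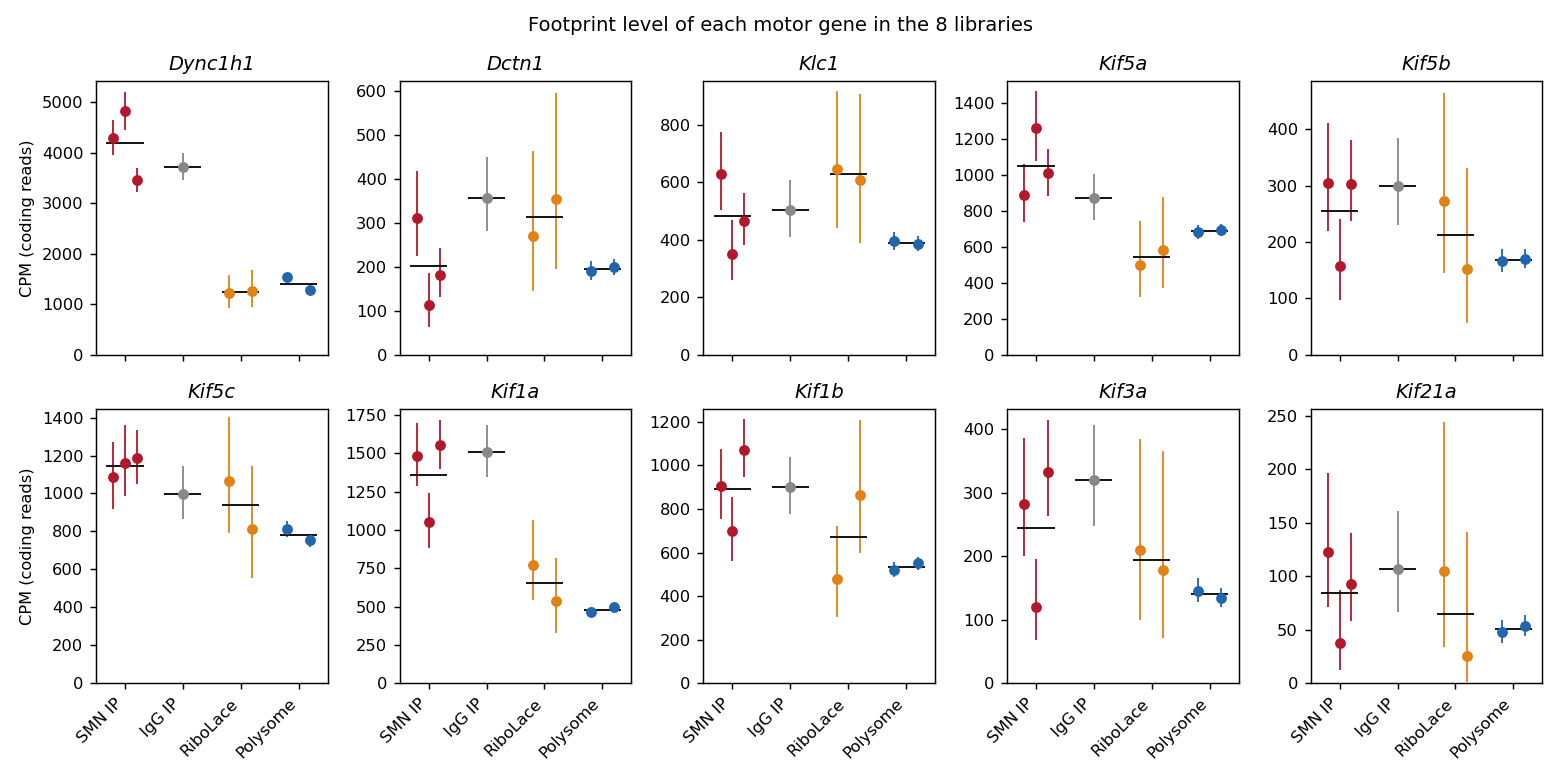
CPM of each motor gene in the 8 libraries, with exact Poisson 95% intervals that cover counting error only and a horizontal line at each group mean. The 4 immunoprecipitates lie above both polysome libraries for Dync1h1, Kif1a, Kif1b, Kif5a and Kif5c, and the second SMN library falls below the polysomes for the other 5 genes.

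Per kilobase of coding region the order of the genes changed between the groups. In the SMN libraries the highest level was that of Kif5c at 399 ± 18.4 CPM per kilobase, followed by Kif5a at 341 ± 61.3, Dync1h1 at 301 ± 49.3, Kif1a at 267 ± 53.4 and Klc1 at 261 ± 75.1 (SD, n = 3). Kif1b at 164 ± 34.4, Kif3a at 116 ± 52.7, Kif5b at 88.1 ± 29.1, Dctn1 at 53.1 ± 26.6 and Kif21a at 16.8 ± 8.63 came after these. The ranges of all neighbours in that order overlapped, except those of Dctn1 and Kif21a. In IgG, Kif5c was highest at 347, then Kif1a at 296, Kif5a at 282, Klc1 at 272 and Dync1h1 at 267 CPM per kilobase. Kif1b at 165, Kif3a at 152, Kif5b at 104, Dctn1 at 94.3 and Kif21a at 21.2 completed the order in that library. In RiboLace, Klc1 came first at 339.7 ± 14.7 and Kif5c next at 327 ± 62.4, with overlapping ranges, and Dync1h1 was only seventh at 89.8 ± 1.86 (SD, n = 2). Between them came Kif5a at 176 ± 18.9, Kif1a at 128 ± 33.3, Kif1b at 123 ± 49.7 and Kif3a at 91.8 ± 10.5, and after them Dctn1 at 82.6 ± 15.6, Kif5b at 73.3 ± 29.2 and Kif21a at 12.9 ± 11.1. From Kif1a to Kif5b these neighbours overlapped. In polysomes the order began with Kif5c at 273 ± 14.9, Kif5a at 223 ± 2.36 and Klc1 at 211 ± 3.57, which did not overlap. Dync1h1 at 101 ± 13.0, Kif1b at 98.1 ± 3.88 and Kif1a at 94.1 ± 4.24 followed with overlapping ranges, then Kif3a at 66.4 ± 3.84, Kif5b at 58.2 ± 1.04, Dctn1 at 51.5 ± 1.33 and Kif21a at 10.1 ± 0.852, each apart from the next. The sources used here do not say whether footprints outside the coding region were counted. Divided by the length of the whole transcript, Dync1h1 came first in both kinds of immunoprecipitate and Klc1 came first in RiboLace and polysomes.

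**Figure D3:**
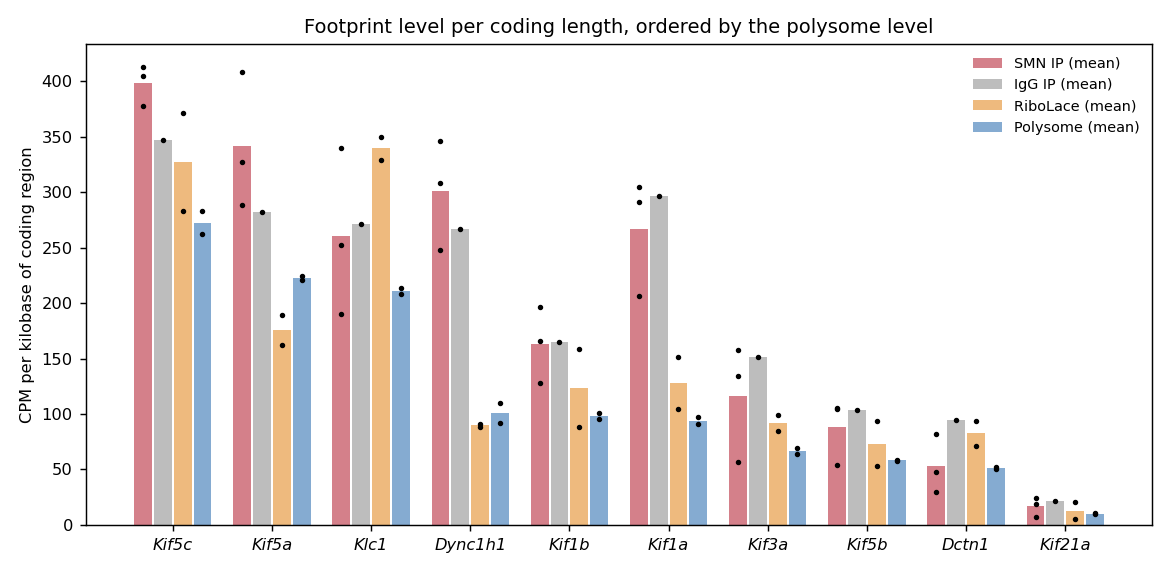
CPM per kilobase of coding region for the 10 motor genes, with bars at the group means, from left to right SMN, IgG, RiboLace and polysomes, and dots at single libraries. Kif5c leads in polysomes at 273 and in the SMN libraries at 399, Klc1 leads in RiboLace at 339.7, and Dync1h1 and Kif1a stand much taller in the immunoprecipitates.

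The IgG immunoprecipitate is the control for footprints pulled down without the SMN antibody. None of the motor genes was called different between SMN and IgG. With edgeR's quasi-likelihood test and Benjamini-Hochberg adjustment, 0 of the 10 genes passed an adjusted p of 0.05 in either direction, where 0.0% of the 5517 genes tested were called higher and 0.0181% lower. Of the 10 members, 0 had an unadjusted p under 0.05, and DESeq2 and limma-voom called 0. The log2 fold changes (SMN over IgG) ran from -0.81 for Dctn1 to 0.29 for Kif5a, with a median of -0.086 beside 0.032 for all genes tested. That of Dync1h1 was 0.19 with a 95% interval of -0.71 to 1.09, and that of Kif1a was -0.13 with an interval of -1.01 to 0.75. Kif5a and Kif5c had every SMN library above IgG and Dctn1 had every one below it, as 21.5% and 23.6% of all genes tested did. With 1 IgG library, its spread is taken to equal that of the SMN libraries, and these intervals leave room for differences of up to about the size of 1 log2 unit in either direction for most members.

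SMN replicate 2 stood apart from the other immunoprecipitates for these genes. Relative to the mean of SMN replicates 1 and 3, its CPM were higher for Kif5a and Dync1h1, by 0.41 and 0.31 on the log2 scale. Kif5c differed by 0.034. The other 7 members were lower in it, with log2 ratios of -0.50 for Kif1b, -0.53 for Kif1a, -0.64 for Klc1, -0.95 for Kif5b, -1.13 for Dctn1, -1.36 for Kif3a and -1.52 for Kif21a. Those 7 except Kif5b have 2 or more coding transcripts of nearly full length in the table, counted where the coding region reaches 90% of the longest. Kif5a, Kif5b, Kif5c and Dync1h1 have 1 such transcript, Kif1b 2, Klc1 3, Kif3a and Dctn1 4, and Kif1a and Kif21a 5.

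That number went with the counts of all genes in the same way. Over polysomes, the median log2 ratio of genes with 1 such transcript was -0.50 in SMN replicate 1, -0.45 in SMN replicate 3 and -0.48 in IgG. For genes with 5 or more it was 1.12, 0.95 and 0.99 in those libraries. In SMN replicate 2 it was -0.21 for genes with 1 transcript and -0.020 for genes with 5 or more. RiboLace lay between, at -0.33 and -0.41 for 1 transcript and 0.38 and 0.78 for 5 or more. SMN replicate 1, SMN replicate 3 and IgG thus shared a gradient that SMN replicate 2 lacked. The sources used here do not say how reads that match several transcripts of a gene were counted, and the part of this gradient in the results below was not tested.

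**Figure D4:**
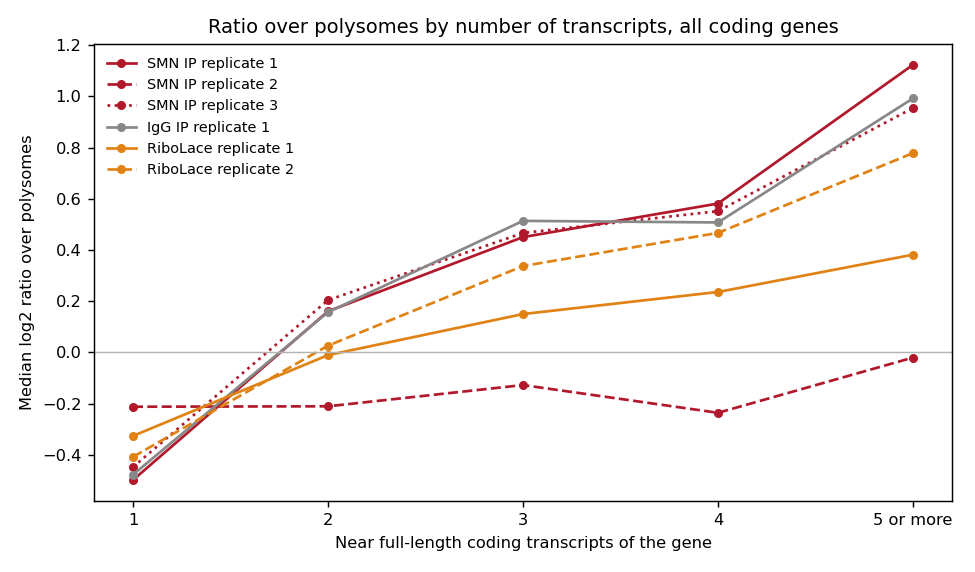
Median log2 ratio over the pooled polysome libraries for all coding genes with a mean of at least 50 CPM, by the number of near full-length coding transcripts of the gene, with 1 line per library. SMN replicates 1 and 3 and IgG climb by over 1 log2 unit, the RiboLace libraries climb less, and SMN replicate 2 stays between -0.24 and -0.020.

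The transcripts of single members were compared as well. The 5 Kif21a transcripts of nearly full length had 17 to 20 reads each in SMN replicate 1, 18 to 23 in IgG and 71 to 90 in polysome replicate 1, but 3 to 7 in SMN replicate 2 and 0 to 5 in RiboLace replicate 1. The other near full-length transcript of Kif1b had 89.6%, 59.1% and 75.3% as many reads as the counted one in SMN replicates 1 to 3 and 85.5% in IgG, against 84.3% and 83.8% in polysomes. Over all genes, the split of reads among such transcripts differed between polysome replicates 1 and 2 with a chi-square of 0.88 per degree of freedom, where independent reads give 1. Between SMN replicate 1 and IgG it was 0.29, between SMN replicates 1 and 3 also 0.29, and between SMN replicate 2 and the polysome libraries 0.97. Counts of Kif1a, Kif1b, Klc1, Kif3a, Kif21a and Dctn1 are uncertain in this respect, since a read may have been counted on more than 1 of their transcripts. Kif5b, Kif5c and Dync1h1 each have a second, shorter coding transcript, and reads may have been counted on both there too. That of Kif5b had 33.9% to 83.3% as many reads as the counted one over the 8 libraries. That of Kif5c had 7.84% to 17.4%, and that of Dync1h1 had 2.31% to 6.78%. Only Kif5a has 1 coding transcript in the table.

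Against polysomes, most of the motor genes were higher in the SMN immunoprecipitates. By edgeR's quasi-likelihood test with Benjamini-Hochberg adjustment, 8 of the 10 genes were called higher and 0 lower, where 16.4% of the 6484 genes tested were called higher and 11.1% lower. The share called higher rose with coding length, from 7.68% under 1 kilobase to 33.5% at 3 to 5 kilobases and 63.2% over 5 kilobases. It also rose from 9.81% of genes with 1 near full-length transcript to 61.4% of those with 5 or more. The members' median log2 fold change (SMN over polysomes) was 0.95, beside -0.015 for all genes tested. Dync1h1 and Kif1a had the largest differences. Dync1h1 was 3.57-fold higher (log2 1.84 ± 0.26 SE, 95% interval 1.29 to 2.39, adjusted p = 0.00025 by edgeR), and Kif1a was 3.42-fold higher (log2 1.78 ± 0.26 SE, 1.21 to 2.34, adjusted p = 0.000385). Both genes had every SMN library above both polysome libraries, as had 15.1% of all genes tested, while 38.6% had every SMN library below. The common dispersion of this fit, over SMN and polysome libraries together, was 0.013, against 0.077 in the fit of SMN and IgG. Its errors, intervals and calls may therefore understate the variation between pull-downs. The neuronal marker sum given above was also higher in every SMN library than in polysomes, and the microglial and macrophage sum was lower, at 269 to 533 CPM in SMN, against 654 to 660.1 CPM in polysomes (9 of 10 markers had reads in SMN, with Aif1 at 0). The astrocyte and radial glia sum was 3371 to 4681 CPM in SMN and 2888 CPM in IgG, against 4776 to 4892 CPM in polysomes. The progenitor and cell cycle sum was higher, at 526 to 960 CPM in SMN and 523 CPM in IgG, against 484 to 518 CPM in polysomes. The part of these marker differences in the members' values was not tested.

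The other 6 called members changed less. Their log2 fold changes were 1.14 for Kif3a, 1.02 for Kif21a, 1.01 for Kif1b, 0.89 for Kif5b, 0.87 for Kif5a and 0.81 for Kif5c, with edgeR adjusted p-values of 0.00851 to 0.0297. Kif5a, Kif5c and Kif1b had every SMN library above both polysome libraries, but Kif3a, Kif21a and Kif5b did not. Klc1 at 0.57 (95% interval 0.0079 to 1.13, edgeR adjusted p = 0.118) and Dctn1 at 0.29 (-0.32 to 0.90, edgeR adjusted p = 0.462) did not pass. The 3 heavy chains of kinesin-1 were thus called and the light chain was not, although the difference between them was not tested. The CPM above are scaled to library totals, whereas the fit uses TMM scaling. With library totals in the fit, the median of all genes was -0.31 and not -0.015, and 4 members were called (Dync1h1, Kif1a, Kif1b and Kif3a). DESeq2 and limma-voom each called 6, which were Dync1h1, Kif1a, Kif1b and the 3 Kif5 genes. Without SMN replicate 2, 9 members were called, with 10996 genes tested in place of 6484. Without SMN replicate 1 there were 3 (Dync1h1, Kif1a and Kif3a), and without SMN replicate 3, polysome replicate 1 or polysome replicate 2 there were 2, Dync1h1 and Kif1a. With all transcripts of a gene summed, the calls were again Dync1h1 and Kif1a alone.

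The IgG library was also set against polysomes, in a fit added after the data were seen. With 1 IgG library, the spread in that fit came from the polysome pair (common dispersion 0.0024, against 0.077 among the immunoprecipitates), so its errors and calls do not cover variation between pull-downs. All 10 members were called higher by edgeR with Benjamini-Hochberg adjustment, where 10.3% of the 12709 genes tested were called higher and 9.15% lower. The share of all genes called higher rose with coding length and with the number of near full-length transcripts in this comparison too. The members' median log2 fold change (IgG over polysomes) was 1.05, beside -0.13 for all genes. Kif1a stood at 1.85 ± 0.16 (SE), Dync1h1 at 1.60 ± 0.18, Kif3a at 1.39 ± 0.21, Kif21a at 1.26 ± 0.34, Dctn1 at 1.06 ± 0.20, Kif5b at 1.03 ± 0.21 and Kif1b at 0.94 ± 0.17. Klc1 at 0.56 ± 0.19, Kif5c at 0.54 ± 0.18 and Kif5a at 0.53 ± 0.18 were the smallest, and these 3 were not called by DESeq2 or with library totals, nor was Kif21a by DESeq2. In the fit of all 8 libraries, which takes in the spread of the SMN libraries, the same 7 members were called as with library totals. The largest edgeR adjusted p among the members was 0.0291. IgG and SMN are set against the same polysome libraries, so the 2 comparisons are not independent. Dctn1 was called in IgG and not in the SMN libraries, but its difference between SMN and IgG did not pass (log2 -0.81, 95% interval -1.75 to 0.12, edgeR adjusted p = 0.999).

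The members were set beside genes of the same class of coding length and the same number of near full-length transcripts, since the median of all genes moved with both. In SMN over polysomes the median log2 fold change was -0.37 for coding regions under 1 kilobase and 1.00 for those over 5 kilobases. It was -0.22 for genes with 1 near full-length transcript and 1.10 for genes with 5 or more. Dync1h1, at 1.84, stood beside a median of 0.68 for 212 genes of over 5 kilobases with 1 such transcript. That class has no upper limit, and the coding region of Dync1h1 has 13935 nucleotides. For the 28 genes of at least 10 kilobases with 1 such transcript, Dync1h1 included, the median was 1.22, and 2 of them lay above Dync1h1. Kif5a at 0.87 stood beside 0.098, and Kif5b at 0.89 and Kif5c at 0.81 stood beside -0.11. These 4 genes were all above the median of their class. In IgG over polysomes Dync1h1 was at 1.60, beside 0.62 for its class and 1.13 for the 37 genes of at least 10 kilobases, and Kif5b was at 1.03 beside -0.17. In SMN over polysomes, Kif3a at 1.14 beside 0.76 and Klc1 at 0.57 beside 0.47 were also above their class, but nearer to it. Kif1a at 1.78 stood beside 1.86 for 14 genes of its kind, Kif1b at 1.01 beside 1.20, Kif21a at 1.02 beside 1.86 and Dctn1 at 0.29 beside 1.14. Kif1a thus did not exceed the median of its class, whereas Dync1h1 and the 3 Kif5 genes did. The spread within these classes was not computed. By length alone, the upper quartile was 1.01 for 3 to 5 kilobases, above Kif5a. It was 0.66 for 2 to 3 kilobases, below Kif5b and Kif5c, and 1.56 over 5 kilobases, below Dync1h1 and Kif1a. For genes with 1 near full-length transcript it was 0.26, below Dync1h1 and the 3 Kif5 genes.

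A ratio between members needs no scaling. Dync1h1 had 4.83, 3.83 and 3.43 reads per Kif5a read in SMN replicates 1 to 3 and 4.27 in IgG, against 2.25 and 1.85 in polysomes. All 4 immunoprecipitates were above both polysome libraries. RiboLace had 2.46 and 2.17, close to polysomes. Both genes have 1 near full-length transcript, but their coding regions differ in length, at 13935 and 3084 nucleotides. Kif5c had 1.22, 0.923 and 1.18 reads per Kif5a read in SMN replicates 1 to 3 and 1.14 in IgG, and 2.13 and 1.39 in RiboLace, against 1.19 and 1.09 in polysomes. This pair of similar length did not separate the immunoprecipitates from polysomes.

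RiboLace and polysomes came from the same genotype and age, so that this contrast compares the capture of active ribosomes with gradient polysomes. None of the motor genes passed the test. By edgeR with Benjamini-Hochberg adjustment, 0 of the 10 were called, where 1.31% of the 10807 genes tested were called higher and 0.925% lower. DESeq2 and limma-voom also called 0, and 2 members, Klc1 and Dctn1, had an unadjusted p under 0.05. Klc1 had a log2 fold change (RiboLace over polysomes) of 0.65 ± 0.23 (SE, 95% interval 0.20 to 1.11, edgeR adjusted p = 0.116), and Dctn1 had 0.62 ± 0.31 (0.022 to 1.22, edgeR adjusted p = 0.317). Klc1 and Kif1a were called with a minimum count of 50, where 4923 genes were tested in place of 10807. The log2 fold change of Klc1 ran from 0.41 to 0.88 over 14 alternative settings.

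Among the rest, Kif3a had a log2 fold change of 0.45, Kif1a 0.43, Kif21a 0.39, Kif5b 0.33, Kif1b 0.25 and Kif5c 0.24, while Dync1h1 had -0.21 and Kif5a -0.39. The members' median was 0.36, beside -0.29 for all genes tested. Here too the median moved with the number of near full-length transcripts, at -0.52 for genes with 1 and 0.67 for genes with 5 or more. Dync1h1 at -0.21 stood beside -0.62 for genes of its length and number, Kif5a at -0.39 beside -0.61, and Klc1 at 0.65 beside 0.21. Kif5b at 0.33 and Kif5c at 0.24 both stood beside -0.67. Kif3a at 0.45 stood beside 0.26, Kif1b at 0.25 beside 0.042 and Dctn1 at 0.62 beside 0.35. Only Kif1a at 0.43 and Kif21a at 0.39, both beside 0.81, were below the median of their class. Dync1h1 and the 3 Kif5 genes were above the median of their class here and in the immunoprecipitates, but all these contrasts share the polysome libraries. The medians also depend on the filter. With a minimum count of 50 (4923 genes) the median of all genes was -0.058 and not -0.29. Class medians were not computed at that setting. RiboLace libraries also carried more of the blood markers, with a summed level of 5267 to 6375 CPM, against 1912 to 2597 CPM in polysomes, although the erythroid genes Alas2 and Slc4a1 had no read in RiboLace. The neuronal sum was also higher in RiboLace, as was the astrocyte and radial glia sum, at 5460 to 6396 CPM, against 4776 to 4892 CPM in polysomes. The microglial and macrophage sum was lower, at 334 to 483 CPM, against 654 to 660.1 CPM in polysomes. The endothelial and pericyte sum was also lower, at 229 to 355 CPM, against 389 to 415 CPM. The part of these marker differences in the members' values was not tested. At 17 to 109 reads per gene over both RiboLace libraries for all members but Kif21a, small differences were not detectable at this depth.

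**Figure D5:**
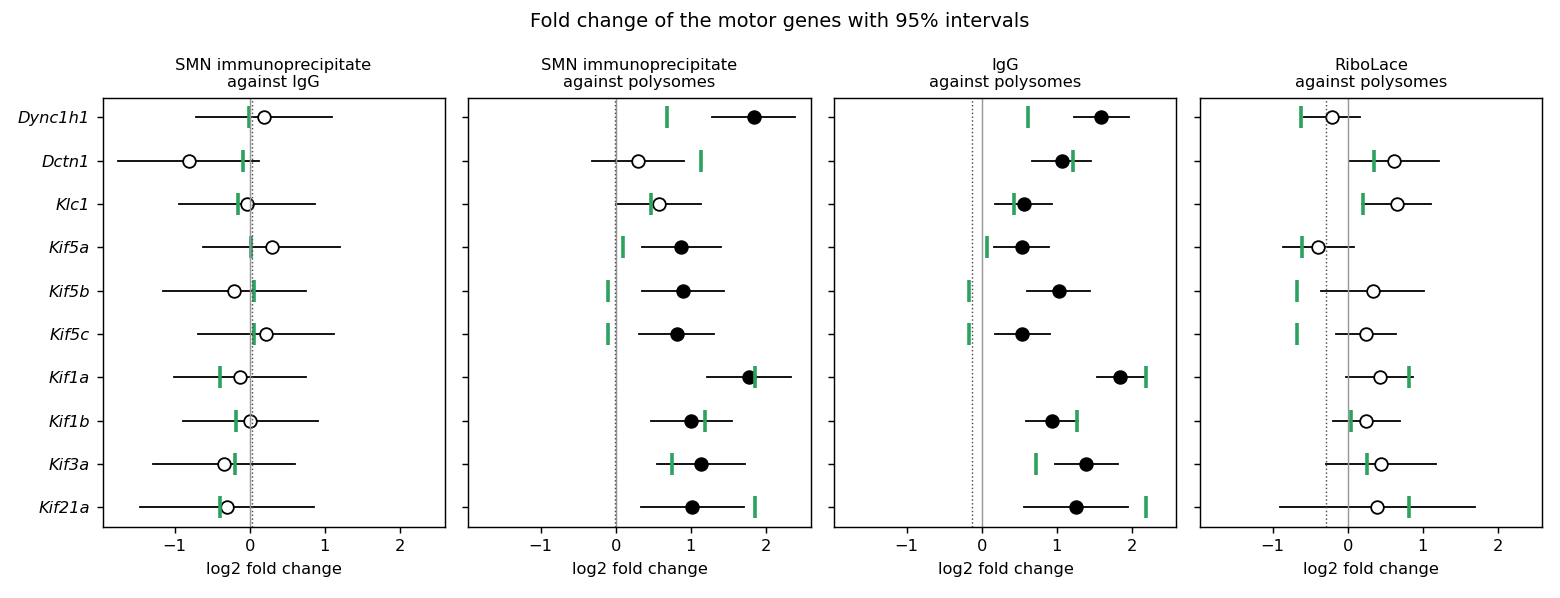
Log2 fold change of the 10 motor genes in 4 comparisons with 95% intervals, where filled points passed an edgeR adjusted p of 0.05, green ticks mark the median of genes of the same coding length class and number of near full-length transcripts, and dotted lines mark the median of all genes. In SMN and in IgG against polysomes, Kif3a, Klc1 and the 4 genes with 1 such transcript lie right of their green ticks. In RiboLace against polysomes, all members but Kif1a and Kif21a lie right of theirs. No point is filled for SMN against IgG or RiboLace against polysomes.

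Genes of the wider transport machinery were counted in 5 lists. Over all 5, edgeR called 11 of 52 genes (21.2%) higher and 2 (3.85%) lower in SMN over polysomes, beside 16.4% and 11.1% of all genes tested. In IgG over polysomes it called 13 of 78 (16.7%) higher and 4 (5.13%) lower, beside 10.3% and 9.15% of all genes. In either direction DESeq2 called 9 and limma-voom 12 of these genes in SMN over polysomes, and 6 and 19 in IgG over polysomes. The counts of single lists below are small and are given as a description, to be read against these shares. The share called also rose with coding length and number of near full-length transcripts. Unlike the members, list genes were not set beside genes of the same class. Between SMN and IgG, edgeR called 0 of the 50 list genes tested, with 3 at an unadjusted p under 0.05 and 0 called by DESeq2 or limma-voom, and between RiboLace and polysomes, edgeR called 0 of 65, with 9 at an unadjusted p under 0.05 and 0 called by DESeq2 or limma-voom. Against polysomes, 2 of 10 other transport kinesins tested were higher in SMN, Kif21b at log2 0.79 and Kif26b at 1.60, with a list median of 0.27. In IgG 3 of 13 were higher, Kif21b at 1.20, Kif26b at 1.62 and the light chain Klc2 at 1.46. Kif21b, the close relative of Kif21a, had 535, 323 and 559 CPM in SMN replicates 1 to 3 and 663 CPM in IgG, against 359.8 and 302 CPM in polysomes, so that SMN replicate 2 lay inside the polysome range. Kifap3, the kinesin-2 adaptor that pairs with Kif3a, was at 0.12 and 0.13 in SMN and IgG over polysomes, and Kif3c was at -0.084 and 0.14. None of these 4 values passed the test.

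Of the mitotic and depolymerising kinesins, 1 of 3 tested was higher in SMN over polysomes, Kif11 at 1.53, the motor that pushes spindle poles apart. Kif11 had 57.9, 82.5 and 46.3 CPM in SMN replicates 1 to 3 and 14.5 CPM, a count of 3, in IgG, against 22.3 and 26.1 CPM in polysomes. Its 3 SMN libraries were above IgG and both polysome libraries, but SMN over IgG did not pass (log2 2.03, SE 0.97, edgeR adjusted p = 0.999). In IgG over polysomes, 1 of 13 of these kinesins was higher, the depolymerase Kif2a at 0.98.

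Of the other dynein subunits, 1 of 7 was higher in SMN over polysomes, the intermediate chain Dync1i2 at 1.20, and 1 of 13 in IgG over polysomes, again Dync1i2 at 1.35. Dync1i2 has 8 near full-length transcripts. The light intermediate chains Dync1li1 and Dync1li2 were at -0.36 and -0.33 in SMN over polysomes and did not pass. Of the other dynactin subunits, 0 of 10 were higher and 1 was lower in SMN, Dctn5 at -1.37, with a list median of -0.22. In IgG, 1 of 11 was higher, the actin capping subunit Capzb at 1.07, and 1 was lower, the dynamitin gene Dctn2 at -0.64.

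Among adaptors and regulators, 7 of 22 genes were higher and 1 was lower in SMN over polysomes. The higher ones were Madd at 1.91, which links Kif1 motors to vesicles, Mapk8ip3 at 1.52, Spag9 at 1.12 and Mapk8ip2 at 0.79, scaffolds of the JIP family, Plekhm2 at 1.03, which joins lysosomes to kinesin-1, Htt at 0.98 and Hap1 at 0.91. Madd and Mapk8ip3 have 13 and 9 near full-length transcripts, beside a median of 1.10 for all genes with 5 or more. The others called higher have 1 or 2, beside medians of -0.22 and 0.33. The dynein adaptor Hook3 was lower at -0.99. In IgG over polysomes, 7 of 28 were higher, which were Madd at 2.25, Mapk8ip3 at 1.58, Plekhm2 at 1.20, Spag9 at 0.96, Htt at 0.88, Fez1 at 0.72 and the dynein regulator Pafah1b1 at 0.67. Hook3 at -1.41, Hap1 at -1.11 and the lysosomal GTPase Arl8b at -1.07 were lower.

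Hap1, which joins huntingtin to dynactin and kinesin light chain, is given in full because its SMN and IgG values lay on opposite sides of polysomes. Its level was 485, 773 and 399.6 CPM in SMN replicates 1 to 3 and 140.3 CPM in IgG, against 351 and 342 CPM in polysomes. Every SMN library was above polysomes and IgG was below them. The difference between SMN and IgG itself, log2 1.98 ± 0.55 (SE), did not pass (edgeR adjusted p = 0.501).

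The genes with the profile nearest to the mean of the 10 members over the 8 libraries were Rpl13, a protein of the large ribosomal subunit, Unc45a, a myosin chaperone, and Pcdh8, a protocadherin. Their root mean square differences from it were 0.099, 0.11 and 0.12 on the log2 scale, among 6243 genes compared. The members themselves lay farther from their own mean, from 0.20 for Kif5b to 0.60 for Dync1h1. Pcdh8 had 297, 195 and 265 CPM in SMN replicates 1 to 3 and 247 CPM in IgG, against 132 and 141 CPM in polysomes, with 167 and 178 CPM in RiboLace.

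Smn1, the gene disrupted in the model, had 159, 97.5 and 143 CPM in SMN replicates 1 to 3 and 29.0 CPM in IgG, against 30.7 and 33.5 CPM in polysomes of Smn-/- brains. Smn1 footprints were therefore listed in Smn-/- libraries, and these counts do not check the genotype.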

How the data were processed

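Raw read counts per Ensembl transcript were deposited by the authors for the 8 libraries, with coding, UTR and transcript lengths, per the file headers. The submitters' processing notes name Trimmomatic 0.36, Bowtie2 2.2.6 and SAMtools with the GRCm38.p4 build. 0 columns belonged to other samples. The table holds 109463 transcripts of 45578 genes. Each coding gene was represented by its most covered protein-coding transcript, with counts scaled by library before they were added, and symbols came from the transcript names.

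Counts were tested in R 4.3.3 with edgeR 4.0.16 (two-sided quasi-likelihood test with robust fitting, TMM, filterByExpr with a minimum count of 10, Benjamini-Hochberg over all genes tested, threshold 0.05) on the libraries compared. Standard errors were derived from the fold change and its F statistic. Per-library ratios by number of transcripts used a prior of 5 CPM. Named genes were the 10 members, Smn1, called genes and up to 3 of the most abundant genes of each list, and the 3 nearest profiles. Members and lists were chosen with earlier results of these data known. The comparison of IgG with polysomes and the grouping by number of transcripts, with the class of at least 10 kilobases, were added after seeing the data.

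Alternatives were DESeq2 1.42.0, limma-voom 3.58.1, library totals, other filters, all 8 libraries in 1 fit, other choices of transcript, summed transcripts, each library left out, and the replicate number as a block. The labels do not say that equal replicate numbers share an animal or day, and deviations of same-numbered samples correlated at 0.023 (RiboLace with polysomes) and 0.016 (SMN with polysomes), so the numbers were not taken as pairs. On simulated counts with 100 genes changed 2-fold and 100 changed 4-fold, 0 and 10 were recovered for SMN against IgG (5517 genes, 0 false calls), 5 and 52 for RiboLace against polysomes (10807 genes, 3 false calls), and 67 and 100 for SMN against polysomes (6484 genes, 6 false calls). For IgG against polysomes (12709 genes) they were 32 and 88, with 5 false calls. In the simulation all libraries of a comparison shared the dispersion trend of its fit, so an unequal spread of pull-downs and polysomes was not simulated. The figures for immunoprecipitates against polysomes may therefore be too favourable. P-values measure the spread between the labelled replicates. Tables and figures used Python 3.11.15 with pandas 2.3.3, scipy 1.17.1 and matplotlib 3.10.9.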

Additional observations from a re-analysis of the deposited data

How the results depend on the processing

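Of 100 genes simulated with a 2-fold change, 0 were recovered for SMN against IgG and 5 for RiboLace against polysomes, so changes of that size would mostly be missed there. Dync1h1 and Kif1a stayed called in SMN over polysomes in 14 of 15 alternatives each, at log2 1.54 to 1.95 and 1.48 to 1.90, the exception being the replicate block (edgeR adjusted p = 0.221 and 0.266). The cause of the changes below was not tested. The number of genes tested also changed with the setting, so the counts called are not shares of 1 set of genes.

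For SMN over polysomes, the genes tested numbered 6484 in the main fit, 1220 with a minimum count of 50 and 8940 with summed transcripts. They numbered 10827 to 10996 without 1 SMN library, and 6195 and 6149 without polysome replicates 1 and 2. In the main fit, 8 members, 1062 higher genes and 719 lower genes were called. The values in that order were 4, 636 and 1578 with library totals, 3, 194 and 166 with a minimum count of 50, and 2, 681 and 434 with summed transcripts. With 1 library left out they ran from 2 to 9, from 103 to 1755 and from 38 to 1593, highest without SMN replicate 2. With the replicate block, which leaves out SMN replicate 3, they were 0, 9 and 0. Lower genes numbered 378 by DESeq2, 358 by limma-voom and 1215 with no filter, and with only genes with 1 coding transcript there were 396 higher and 246 lower genes.

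For IgG over polysomes, 10 members, 1311 higher genes and 1163 lower genes were called. DESeq2 called 6 members, 452 and 161 genes. All 8 libraries in 1 fit gave 756 and 479 genes, summed transcripts 2141 and 1912, and genes with 1 coding transcript 280 and 110. Lower genes numbered 465 by limma-voom and 1824 with library totals. Leaving out a polysome replicate was not run, since no residual degree of freedom remains.

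For RiboLace over polysomes, 0 members, 142 higher genes and 100 lower genes were called. Members called numbered 2 with a minimum count of 50 and 0 to 1 with 1 library left out. Higher genes numbered 0 by limma-voom, 258 with a minimum count of 50, 63 with all 8 libraries, 243 with summed transcripts, 58 with the replicate block and 31 to 111 with 1 library left out. Lower genes numbered 5 by DESeq2, 0 by limma-voom, 1 with all 8 libraries, 55 with the highest unscaled or the longest coding transcript, 51 with summed transcripts, 0 with the replicate block, 14 with genes with 1 coding transcript and 1 to 72 with 1 library left out, lowest without either RiboLace replicate.

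For SMN over IgG, 0 higher genes and 1 lower gene were called. Leaving out 1 SMN library gave 0 to 2 and 0 to 3, with the high values without SMN replicate 2. Lower genes numbered 0 by DESeq2, with a minimum count of 50, with summed transcripts and with genes with 1 coding transcript, and 2 with all 8 libraries. The members' share of summed transcripts was 1.08% in SMN, 1.06% in IgG, 0.726% in RiboLace and 0.627% in polysomes.

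Changes of sign were seen for log2 fold changes that had not passed the test, and for Kif21a in SMN over polysomes, which was -0.080 relative to genes with as many near full-length transcripts. In SMN over IgG, Kif1b was -0.010 by limma-voom, -0.020 with library totals, -0.021 with all 8 libraries, -0.028 with no filter and -0.068 with a minimum count of 50. With 1 SMN library left out, Kif1b ran from -0.16 to 0.15, Kif1a from -0.25 to 0.012, Kif5b from -0.37 to 0.017 and Klc1 from -0.29 to 0.10, each highest without SMN replicate 2. In RiboLace over polysomes, Kif21a was -0.27 with the highest unscaled transcript and -0.14 with summed transcripts, Kif3a was -0.51 with the longest coding transcript and Dync1h1 was 0.020 with a minimum count of 50. With 1 library left out, Kif1b ran from -0.22 to 0.56, Kif5b from -0.28 to 0.62, Kif5c from -0.079 to 0.38 and Kif21a from -1.13 to 0.97, each depending on which RiboLace replicate was left out. In SMN over polysomes, Dctn1 was -0.00072 with library totals and ran from -0.090 to 0.47 with 1 library left out, lowest without SMN replicate 1.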
